A study of Mus musculus with 18 samples.

Results

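The mRNAs of 10 subunits of the CCR4-NOT deadenylase complex were followed across the polysome gradients of mouse embryonic stem cells (ESCs) with and without DDX6. The members were chosen by name as subunits of one complex, with earlier results of these data known. They were *Cnot1*, *Cnot2*, *Cnot3*, *Cnot4*, *Cnot6*, *Cnot6l*, *Cnot7*, *Cnot8*, *Cnot10* and *Cnot11*, which are 10 of the 51467 genes in the count table. All 10 passed the filter on low counts, which left 12705 genes for testing.

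The wild-type (WT) cells were V6.5 mouse ESCs, and the *Ddx6* KO cells were derived from ESCs with CRISPR-Cas9 and carry insertions or deletions in *Ddx6*. Both were grown with serum, LIF and the 2i inhibitors PD0325901 and CHIR99021, and both received 100 ug/ml cycloheximide for 2 minutes to arrest ribosomes before lysis. There were 3 gradients per genotype. Among the KO gradients, number 1 was of clone 1 and numbers 2 and 3 were of clone 2, so clone 1 had no replicate of its own. Each sucrose gradient, of 10 to 50%, gave a monosome library, a low polysome library (mRNAs with 2 to 4 ribosomes) and a high polysome library (from 4 ribosomes upward), for 18 libraries in 6 groups. The labels do not say whether the gradients came from separate cultures. If they did not, the p-values below measure only the spread between these gradients. In either case the fits hold no term for clone, so the p-values do not separate spread between clones from spread between gradients. Fits without KO gradient 1 hold clone 2 alone.

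CCR4-NOT shortens the poly(A) tails of mRNAs, which is a first step of mRNA decay, and it can also repress translation. CNOT1 is the scaffold on which the other subunits assemble. The nucleases are of the CAF1 type (CNOT7 and CNOT8) and the CCR4 type (CNOT6 and CNOT6L), and each pair of paralogs competes for one place in the complex. CNOT2 and CNOT3 form the NOT module, CNOT10 and CNOT11 form a module at the amino-terminal end of the scaffold, and CNOT4 is a RING-type E3 ubiquitin ligase that is loosely or not stably bound in mammals. DDX6 binds the scaffold, and TNRC6 proteins bring the complex to microRNA targets, so the complex lies between microRNAs and DDX6 in the repression pathway.

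Libraries held between 2543617 and 11474550 gene counts, and the members had between 48 (*Cnot4*) and 1998 (*Cnot1*) counts in a library. All 8 stem cell markers on a fixed list were above 10 CPM (counts scaled to library size, with TMM factors) in every library, with a sum of 2303 to 5537 CPM in WT and 2432 to 4113 CPM in KO. The 4 listed epiblast markers summed to 36.1 to 80.4 CPM in the WT libraries and to 11.7 to 26.2 CPM in the KO libraries, without overlap, and *Fgf5* and *T* among them were under 1 CPM in every library. The part of this difference in the KO against WT changes below was not tested. For the other lists the genotypes overlapped, with sums of 3.95 to 10.4 CPM in WT and 5.79 to 10.97 CPM in KO for 5 fibroblast markers (*Col1a2*, *Col3a1* and *Dcn* under 1 CPM throughout), 1.99 to 7.19 and 2.63 to 9.80 CPM for 5 of primitive endoderm (*Sox7* under 1 CPM), 2.33 to 6.80 and 3.86 to 8.01 CPM for 3 of trophoblast (*Elf5* under 1 CPM), and 26.1 to 42.9 and 25.1 to 68.6 CPM for 2 neural ones. *Ddx6* itself was at 143 to 212 CPM in the WT libraries and at 9.68 to 82.7 CPM in the KO libraries. Within the KO libraries the clones did not overlap, with 55.3 to 82.7 CPM in the 3 libraries of clone 1 and 9.68 to 26.7 CPM in the 6 libraries of clone 2. Since the reads mark 3′ ends, they do not test the edited site. By Western blot, the paper reports that DDX6 protein was absent from both clones. In bulk cells, fewer cells of one type and less RNA per cell cannot be told apart.

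The members lie on 8 chromosomes. In the GRCm38 assembly, *Cnot1* is at chr8:95719451-95807464, *Cnot7* at chr8:40492540-40515847, *Cnot6* at chr11:49671503-49712723 and *Cnot8* at chr11:58104229-58118594. *Cnot2* is at chr10:116485161-116581511, *Cnot3* at chr7:3645352-3661109, *Cnot4* at chr6:35022065-35133724 and *Cnot6l* at chr5:96070333-96161990. *Cnot10* is at chr9:114585878-114640184 and *Cnot11* at chr1:39534992-39546889. One transcript per gene was taken from the Gencode M21 annotation of that assembly, and its coding length ran from 858 nt (*Cnot7*) to 7131 nt (*Cnot1*). Of the 10 genes, *Cnot3* shared 50-base stretches within 500 bases of an annotated 3′ end with another gene, *Gm9207*, and overlapped *Mir3572* on its own strand. The other 9, including both pairs of nuclease paralogs, shared none.

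Because the complex is recruited by microRNAs, the 3′ UTRs were searched for sites of the ESC-enriched ESCC microRNAs. The mature sequences from RefSeq (GRCm38.p6) that carry the shared seed are shown 5′ to 3′ with the seed, bases 2 to 8, in capitals.
mmu-miR-291a-3p: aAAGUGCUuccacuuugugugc
mmu-miR-294-3p: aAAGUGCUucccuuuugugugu
mmu-miR-295-3p: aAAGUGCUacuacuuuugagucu
mmu-miR-302b-3p: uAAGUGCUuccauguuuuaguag
mmu-miR-302d-3p: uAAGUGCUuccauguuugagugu

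The 8mer site of this seed, AGCACTTA, was present in the 3′ UTRs of *Cnot6* and *Cnot6l*, the paralogous CCR4-type nucleases, and in none of the other 8 members. Over the 11639 tested genes with an annotated 3′ UTR, 3.27% held this 8mer and 18.9% held it or one of the 7mers inside it, AGCACTT and GCACTTA. *Cnot6* held a 7mer as well. Among the single transcripts taken per gene, that of *Cnot6* had the longest 3′ UTR of the 10, at 3690 nt. The range was 283 to 3690 nt, against a median of 965 nt over the tested genes, and *Cnot6l* had 1443 nt. Other transcripts of these genes, which may have longer 3′ UTRs, were not searched, so sites there would be missed. The sites are shown on the mRNA strand, the only strand searched, with the match in capitals. They start at positions 2142 and 2993 of the *Cnot6* 3′ UTR and at position 515 of the *Cnot6l* 3′ UTR. A match is a description of the sequence and not evidence that the site is used.
Cnot6 8mer, chr11:49673044-49673051, minus strand: agaggggaggAGCACTTActcatctctg
Cnot6 7mer, chr11:49672194-49672200, minus strand: atttcatattAGCACTTtgaaacctaa
Cnot6l 8mer, chr5:96076658-96076665, minus strand: acattatcaaAGCACTTAaatttgcttg

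An AU-rich heptamer, TATTTAT, searched on the same strand, was present in 4 members (*Cnot3*, *Cnot6*, *Cnot7* and *Cnot8*) against 27.5% of tested genes. Both CAF1-type nucleases held it. No value below was tested against these motifs.

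The scaffold mRNA was the most abundant of the members and that of the ligase the least. Each QuantSeq read stands for one 3′ end, so CPM values were compared between genes without division by length. Averaged over the 3 fractions of each WT gradient, *Cnot1* was at 167 ± 10.1 CPM (SD, n = 3), followed by *Cnot3* at 117 ± 10.0 CPM. The scaffold and *Cnot3* did not overlap each other or any lower member. The next 6, from *Cnot11* (62.5 ± 2.56 CPM) through *Cnot10*, *Cnot8*, *Cnot6* and *Cnot2* to *Cnot7* (47.5 ± 5.85 CPM), each overlapped the neighbour in the order. *Cnot6l* at 31.7 ± 1.54 CPM and *Cnot4* at 17.8 ± 2.38 CPM stood below them without overlap. In the KO gradients the order again began with *Cnot1* (139 ± 0.545 CPM) and *Cnot3* (94.7 ± 5.35 CPM) and ended with *Cnot7*, *Cnot6l* (32.4 ± 1.73 CPM) and *Cnot4* (16.3 ± 0.467 CPM).

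**Figure D1:**
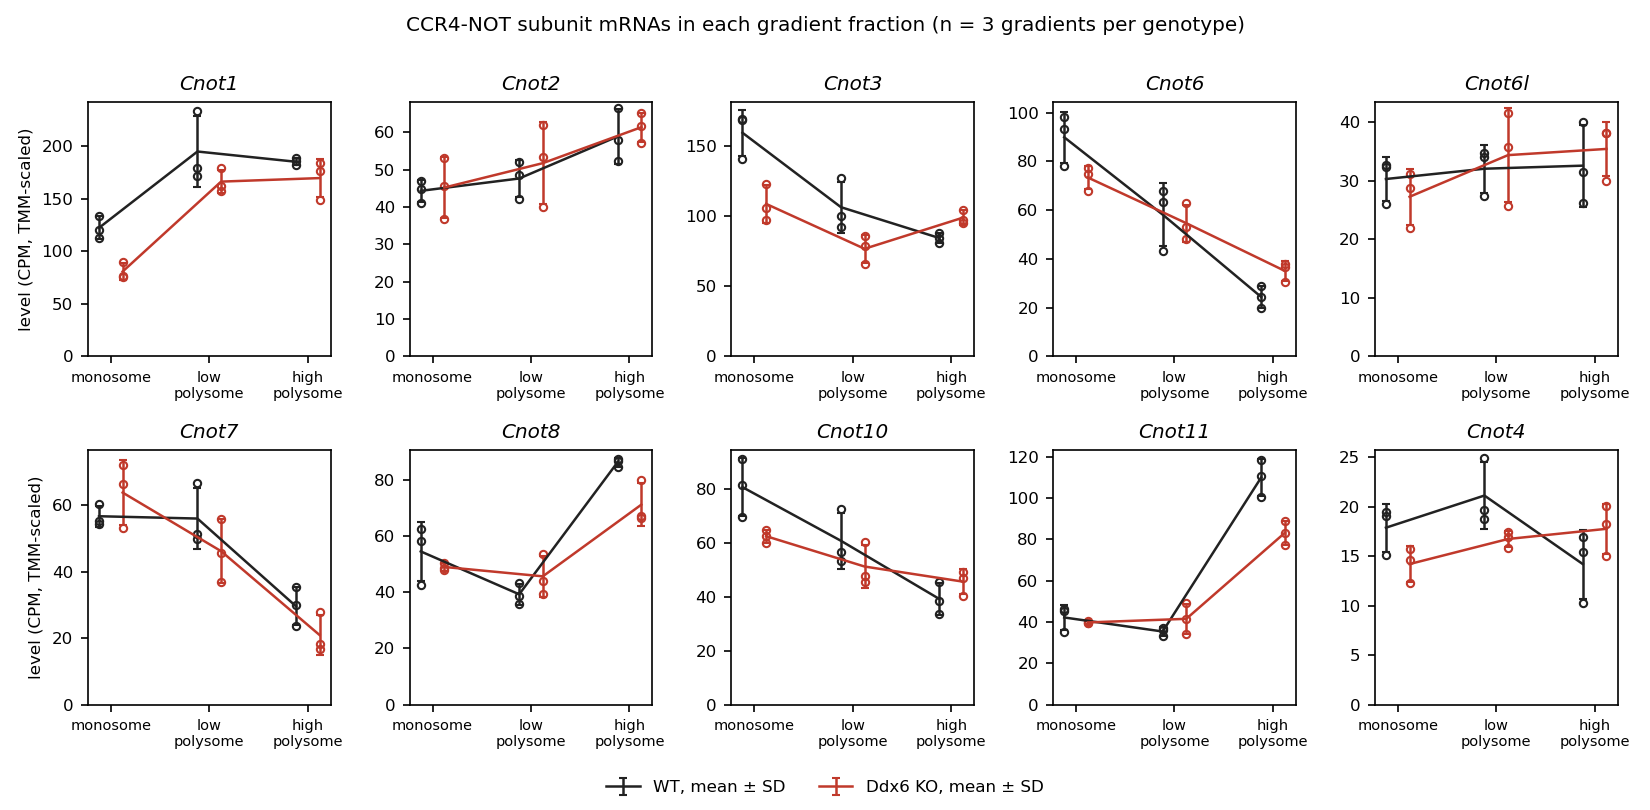
Level of each subunit mRNA in CPM (vertical axis, from 0, with its own scale in each panel) along the gradient, for the fractions of 3 WT (black) and 3 *Ddx6* KO (red) gradients. Circles are single libraries and lines join group means ± SD. *Cnot8* and *Cnot11* are highest in the high polysome while *Cnot6*, *Cnot7* and *Cnot10* are lowest there, in both genotypes.

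To ask where each subunit mRNA sits in unperturbed cells, high polysome and monosome abundance were compared in WT. The members divided evenly. *Cnot11*, *Cnot8*, *Cnot1* and *Cnot2* were higher in the high polysome, and *Cnot6*, *Cnot10*, *Cnot7* and *Cnot3* were higher in the monosome. That is 4 of 10 in each direction (limma, adjusted p under 0.05), where 28.9% of all tested genes were called higher and 32.2% lower, so the share was near the background in both directions. The division ran through the modules. *Cnot7* and *Cnot8*, *Cnot2* and *Cnot3*, and *Cnot10* and *Cnot11* were each called in opposite directions, and *Cnot6* was called without its paralog *Cnot6l*. Those 8 were also the members whose high polysome and monosome libraries did not overlap, as was so for 33.2% (above) and 35.2% (below) of tested genes. The median of the 10 log2 differences was -0.11, beside -0.02 over all tested genes.

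Among the CAF1-type nucleases, *Cnot8* was at 62.5, 58.3 and 42.5 CPM in the monosomes of WT gradients 1 to 3 and at 87.4, 86.7 and 84.4 CPM in the high polysomes. *Cnot7* was at 54.6, 60.4 and 55.3 CPM in the same monosomes and at 23.7, 35.3 and 29.9 CPM in the high polysomes. The fractions did not overlap for either gene, and the genes moved in opposite directions. On the log2 scale the difference was 0.70 ± 0.15 (SE, adjusted p = 0.00037) for *Cnot8* and -0.95 ± 0.20 (adjusted p = 0.000422) for *Cnot7*. The coding lengths of the pair were almost equal, at 879 and 858 nt.

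The CCR4-type nucleases were called differently. *Cnot6* had 93.2, 78.3 and 98.2 CPM in WT monosomes and 19.8, 29.0 and 24.4 CPM in WT high polysomes, a difference of -1.88 ± 0.18 (adjusted p = 2.18e-08) and the lowest value of the 10. *Cnot6l* had 32.7, 26.0 and 32.3 CPM in monosomes and 26.2, 40.1 and 31.6 CPM in high polysomes. Its groups overlapped and its difference, 0.10 ± 0.21, did not pass the test (adjusted p = 0.687). Here too the coding lengths were close, at 1674 nt for *Cnot6* and 1668 nt for *Cnot6l*.

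In the amino-terminal module, *Cnot11* gave the highest value of the 10, with 35.0, 46.2 and 45.2 CPM in WT monosomes and 119, 110.4 and 101 CPM in WT high polysomes (1.36 ± 0.14, adjusted p = 8.59e-08). Its partner *Cnot10* had 69.7, 81.5 and 91.2 CPM in monosomes and 38.4, 33.6 and 45.7 CPM in high polysomes (-1.06 ± 0.16, adjusted p = 7.73e-06). The low polysome of *Cnot11*, at 33.0 to 37.0 CPM, was no higher than its monosome, so its rise came between the low and the high polysome.

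The scaffold *Cnot1* had 134, 121 and 112 CPM in WT monosomes, 179, 171 and 234 CPM in low polysomes and 185, 182 and 188 CPM in high polysomes (high polysome against monosome, 0.61 ± 0.13, adjusted p = 0.000495). Its rise came already at the low polysome. In the NOT module *Cnot3* had 169, 141 and 168 CPM in monosomes and 80.9, 84.0 and 88.1 CPM in high polysomes (-0.91 ± 0.14, adjusted p = 9.42e-06), while *Cnot2* had 41.1 to 47.0 CPM and 52.2 to 66.6 CPM (0.41 ± 0.17, adjusted p = 0.0453). The *Cnot2* call was lost without WT gradient 2 (0.25, adjusted p = 0.365) or WT gradient 3 (0.43, adjusted p = 0.129). *Cnot4*, the ligase, had 15.1 to 19.5 CPM and 10.3 to 17 CPM and was not called (-0.33 ± 0.21, adjusted p = 0.182).

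In the KO cells the same comparison called 7 of the 10. *Cnot1*, *Cnot11*, *Cnot8* and *Cnot2* were higher in the high polysome (4, beside 35.0% of all tested genes) and *Cnot7*, *Cnot6* and *Cnot10* were lower (3, beside 33.6%). The log2 differences were 1.07 ± 0.13 for *Cnot1* (adjusted p = 4.17e-07), 1.06 ± 0.13 for *Cnot11* (adjusted p = 6.36e-07), -1.64 ± 0.20 for *Cnot7* (adjusted p = 3.86e-07) and -1.07 ± 0.17 for *Cnot6* (adjusted p = 1.19e-05). Those of *Cnot8* (0.53 ± 0.14, adjusted p = 0.00206), *Cnot10* (-0.46 ± 0.15, adjusted p = 0.0109) and *Cnot2* (0.45 ± 0.16, adjusted p = 0.0155) were smaller. *Cnot3* (-0.13 ± 0.14), *Cnot6l* (0.38 ± 0.19) and *Cnot4* (0.32 ± 0.19) were not called. Without KO gradient 1 the calls of *Cnot2* (0.27, adjusted p = 0.143) and *Cnot10* (-0.35, adjusted p = 0.111) were lost, without KO gradient 3 *Cnot6l* was called (0.62, adjusted p = 0.0242), and *Cnot8* was not called after thinning to equal depth (0.32, adjusted p = 0.141) or with clone 1 alone (0.42, adjusted p = 0.172). The *Cnot2* call was also lost with scaling by library size alone (0.35, adjusted p = 0.0636).

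Whether the loss of DDX6 changed the translation level, the high polysome over monosome ratio, was tested as the KO difference less the WT difference. *Cnot3* and *Cnot6*, which both lay toward the monosome in WT, were raised. No member was lowered. These 2 of 10 stand beside 10.7% of all tested genes called raised and 7.09% called lowered, so the count is not far from the background. The median change over the members was 0.37, against 0.02 over all tested genes, and 7 of the 10 values were above 0. These medians are not matched for coding length. The trend on coding length given below was above 0 at the lengths of all members but *Cnot7* and *Cnot8*.

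*Cnot3*, a NOT-module subunit, had log2 ratios of -1.06, -0.74 and -0.93 in WT gradients 1 to 3 and of -0.34, -0.16 and 0.11 in KO gradients 1 to 3. The genotypes did not overlap, and the highest WT value was below the lowest KO value. The change was 0.78 ± 0.19 (adjusted p = 0.00965). It was no longer called without WT gradient 1 (0.63, adjusted p = 0.0723), without KO gradient 3 (0.64, adjusted p = 0.0818) or with the clone 1 gradient as the only KO gradient (0.52, adjusted p = 0.354). Fits with clone 1 alone have a single KO gradient, which is assumed to vary like the other groups, so a call lost there does not show that the change is absent in clone 1. The change of *Cnot3* kept its direction there, in a gradient that is also part of the full fit.

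*Cnot6*, a CCR4-type nuclease, had log2 ratios of -2.21, -1.42 and -1.99 in WT and of -0.88, -1.33 and -0.97 in KO. Every KO gradient lay above every WT gradient, though WT gradient 2 and KO gradient 2 were close. The change was 0.81 ± 0.25 (adjusted p = 0.0291). This call was lost under 10 of 17 alternatives, among them the fits without WT gradient 1 (0.58, adjusted p = 0.115), WT gradient 3 (0.74, adjusted p = 0.0858), KO gradient 1 (0.72, adjusted p = 0.076) and KO gradient 3 (0.75, adjusted p = 0.124), and the fit with counts thinned to equal depth (0.72, adjusted p = 0.0786). With clone 1 alone the change was 0.94 (adjusted p = 0.231), larger than in the full fit. Its paralog *Cnot6l* changed by 0.28 ± 0.29 (adjusted p = 0.528), and the genotypes overlapped. Whether the paralogs differ in their change was not tested.

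The remaining changes did not pass the test. *Cnot10* had ratios of -0.85, -1.27 and -0.99 in WT and of -0.68, -0.35 and -0.34 in KO, again without overlap (0.60 ± 0.22, adjusted p = 0.0606). *Cnot10* was called under 3 of 17 alternatives. These were the gradient fitted as a block (0.60, adjusted p = 0.0314), which uses the shared lysate of the 3 fractions, the compared groups only, and the fit without KO gradient 1 (0.72, adjusted p = 0.0475). In that last fit the KO gradients were all of clone 2. Over all tested genes 21.2% had KO gradients wholly above the WT gradients and 17.8% wholly below, and among the members these were 3 (*Cnot3*, *Cnot6* and *Cnot10*) and 0. *Cnot1* changed by 0.46 ± 0.19 (adjusted p = 0.0894) and was called without KO gradient 2 (0.63, adjusted p = 0.0491). *Cnot4* (0.65 ± 0.28, adjusted p = 0.116), *Cnot2* (0.04 ± 0.23), *Cnot8* (-0.17 ± 0.20) and *Cnot11* (-0.30 ± 0.20) were not called.

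*Cnot7*, the CAF1-type nuclease toward the monosome, was the member with the most negative change (-0.69 ± 0.28, adjusted p = 0.0973). Its ratios were -1.18, -0.77 and -0.88 in WT and -0.92, -1.96 and -1.95 in KO. KO gradient 1, the only one of clone 1, lay within the WT values, and both gradients of clone 2 lay below them. With clone 1 alone the change was -0.03. Without that gradient it was -1.03 (adjusted p = 0.00999). The KO gradients left in that fit were all of clone 2, so its p-value holds no spread between clones. *Ddx6* reads were also lower in clone 2 than in clone 1, as given above. Whether the clones differ was not tested, since clone 1 had a single gradient.

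**Figure D2:**
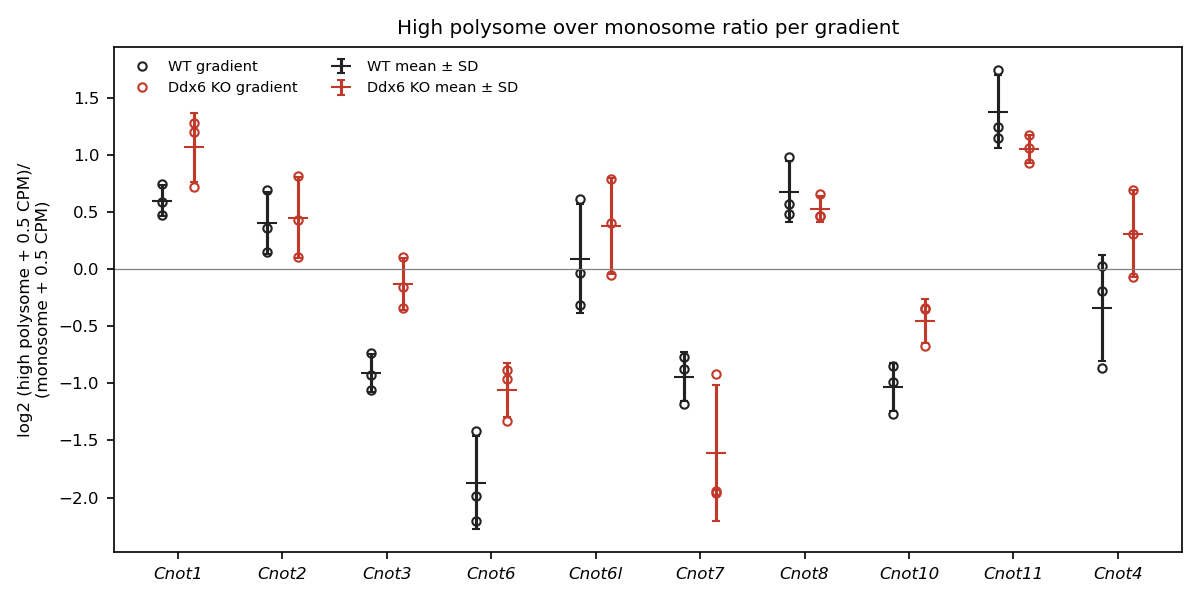
Log2 ratio of high polysome to monosome CPM, with 0.5 CPM added to each, for the 10 subunits in 3 WT (black) and 3 *Ddx6* KO (red) gradients. Circles are gradients, and bars give the mean ± SD. The genotypes do not overlap for *Cnot3*, *Cnot6* and *Cnot10*, and a single KO circle of *Cnot7*, that of clone 1, lies among the WT circles.

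When the low polysome was set over the monosome instead, the same test called 0 of the 10 members by limma, and 0 had an unadjusted p under 0.05. The edgeR and DESeq2 tests called 0 as well. Over all tested genes 2.31% were called raised and 2.39% lowered. The changes ran from -0.44 ± 0.27 for *Cnot7* to 0.37 ± 0.19 for *Cnot1*, with a median of 0.18 beside 0.02 over all tested genes. *Cnot3*, for example, had low polysome over monosome log2 ratios of -0.87, -0.49 and -0.41 in WT and of -0.64, -0.31 and -0.56 in KO, which overlapped.

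The ratio can change through either fraction, so KO was also compared with WT inside each fraction, where the epiblast markers given above differed between the genotypes as well. These comparisons share their libraries with the ratio above. In the monosome, *Cnot1* and *Cnot3* were lower in KO and none was higher (2 and 0 of 10, beside 20.1% and 18.6% of tested genes). *Cnot1* had 76.4, 90.0 and 75.5 CPM in KO monosomes, all below the WT range of 112 to 134 CPM (-0.59 ± 0.14, adjusted p = 0.00172). *Cnot3* had 123, 106 and 97.0 CPM against 141 to 169 CPM (-0.55 ± 0.14, adjusted p = 0.00345). *Cnot1* passed the test under all 15 alternatives, with values from -0.68 to -0.49, and *Cnot3* under 14 of 15, the exception being clone 1 alone (-0.38, adjusted p = 0.175).

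*Cnot10* (60.2 to 64.9 CPM in KO against 69.7 to 91.2 CPM in WT, -0.38 ± 0.16, adjusted p = 0.0597) and *Cnot6* (68.0 to 77.4 against 78.3 to 98.2 CPM, -0.29 ± 0.17, adjusted p = 0.188) did not overlap between the genotypes but did not pass the test. *Cnot10* passed it under 4 of 15 alternatives. These were the fit without WT gradient 1 (-0.46, adjusted p = 0.0445), DESeq2 size factors, the compared groups only and the DESeq2 test. With these, 4 of 10 members lay wholly below WT in the monosome, where 27.0% of tested genes did.

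In the low polysome *Cnot3* alone was called. It had 78.8, 85.5 and 65.7 CPM in KO and 92.3, 99.8 and 127 CPM in WT, without overlap (-0.47 ± 0.14, adjusted p = 0.00793). This is 1 of 10, beside 24.3% of tested genes called lower and 23.4% called higher. The call was lost without WT gradient 3 (-0.34, adjusted p = 0.0662) or KO gradient 3 (-0.39, adjusted p = 0.0541), and when the low polysome libraries alone were fitted (-0.43, adjusted p = 0.0693). *Cnot4*, at 15.9 to 17.5 CPM in KO and 18.7 to 25 CPM in WT, did not overlap either but was not called (-0.33 ± 0.18, adjusted p = 0.147). Over all tested genes 26.1% lay wholly below WT in this fraction.

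In the high polysome other members were called. *Cnot6* was higher in KO (36.6, 30.5 and 38.1 CPM against 19.8, 29.0 and 24.4 CPM, 0.52 ± 0.18, adjusted p = 0.0229). *Cnot11* was lower (77.1, 89.0 and 83.2 CPM against 119, 110.4 and 101 CPM, -0.40 ± 0.13, adjusted p = 0.0127), as was *Cnot7* (27.8, 18.2 and 16.9 CPM against 23.7, 35.3 and 29.9 CPM, -0.53 ± 0.21, adjusted p = 0.0403). The genotypes did not overlap for *Cnot6* and *Cnot11*, and they overlapped for *Cnot7*, where the clone 1 gradient lay among the WT values. These are 1 of 10 higher and 2 of 10 lower, beside 25.3% and 21.1% of tested genes. *Cnot3*, lower in KO in the other fractions, was at 94.7 to 105 CPM in KO high polysomes and 80.9 to 88.1 CPM in WT (0.23 ± 0.14, adjusted p = 0.176).

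*Cnot11* was called under all 15 alternatives in that fraction, with values from -0.57 to -0.34. The *Cnot6* call was lost under 7 of 15, including the fits without WT gradient 1 (0.32, adjusted p = 0.134), KO gradient 1 (0.50, adjusted p = 0.0605) and KO gradient 3 (0.44, adjusted p = 0.107). The *Cnot7* call was lost under 6 of 15, including the fits without WT gradient 2 (-0.40, adjusted p = 0.18), WT gradient 3 (-0.53, adjusted p = 0.09), KO gradient 2 (-0.45, adjusted p = 0.119) and KO gradient 3 (-0.41, adjusted p = 0.196), and it was -0.15 with clone 1 alone. *Cnot8*, the other CAF1-type nuclease, had 66.1, 79.9 and 67.1 CPM in KO and 84.4 to 87.4 CPM in WT (-0.28 ± 0.13, adjusted p = 0.0897). It was called under 3 of 15 alternatives, which were DESeq2 size factors (-0.35, adjusted p = 0.0366), library size alone and the DESeq2 test. Counting *Cnot3* and *Cnot8*, 2 members lay wholly above and 2 wholly below WT in the high polysome, beside 29.0% and 26.1% of tested genes.

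**Figure D3:**
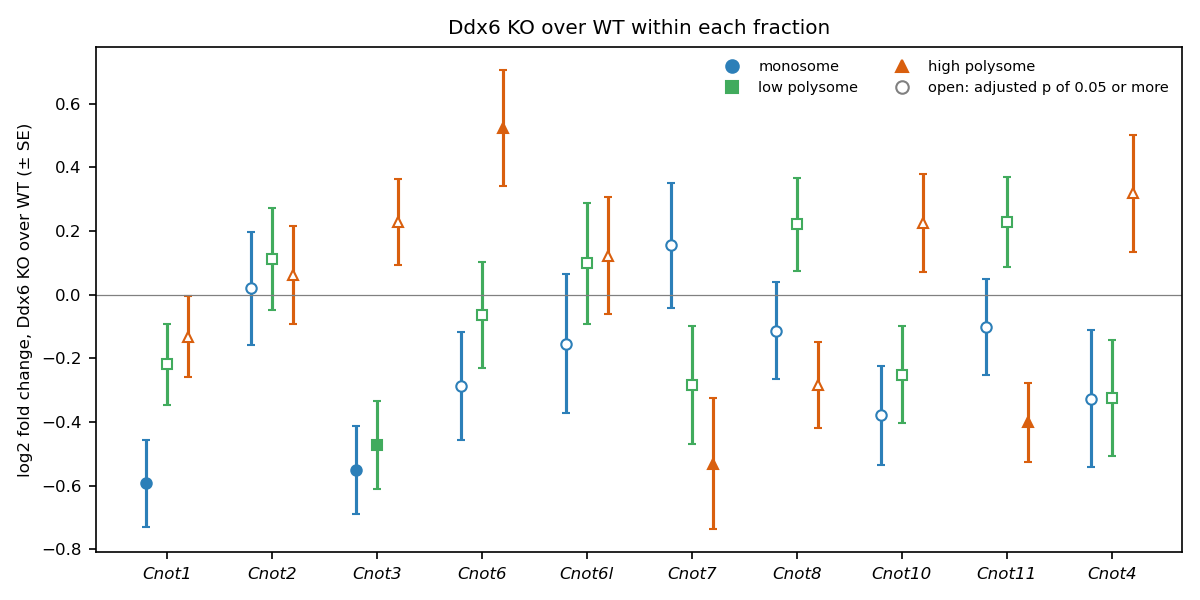
Log2 fold change of *Ddx6* KO over WT (vertical axis, ± SE from limma) for the 10 subunits in the monosome (blue circles), low polysome (green squares) and high polysome (orange triangles). Filled symbols had an adjusted p under 0.05, which holds for *Cnot1* and *Cnot3* in the monosome, *Cnot3* in the low polysome, and *Cnot6*, *Cnot7* and *Cnot11* in the high polysome.

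Averaged over the 3 fractions, which is not the same as total cellular RNA, *Cnot1* (-0.32 ± 0.08, adjusted p = 0.00481) and *Cnot3* (-0.26 ± 0.09, adjusted p = 0.0275) were lower in KO. These were 2 of 10, beside 28.2% of tested genes called lower, and 0 of 10 were higher, beside 28.4%. The other 8 lay between -0.21 (*Cnot7*) and 0.06 (*Cnot6* and *Cnot2*). The *Cnot3* call was lost when counts were summed over the fractions (-0.16, adjusted p = 0.224), without WT gradient 3 (-0.20, adjusted p = 0.0921), without KO gradient 2 (-0.27, adjusted p = 0.0626), without KO gradient 3 (-0.23, adjusted p = 0.104), without the filter on low counts (-0.22, adjusted p = 0.0858) and with clone 1 alone (-0.19, adjusted p = 0.338), which are 6 of 13 alternatives. The *Cnot1* call was lost with clone 1 alone (-0.33, adjusted p = 0.0773) and under none of the other 12 alternatives.

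The counts of 2 genes in one library give a ratio that does not depend on scaling between libraries, and the pairs were compared in this way after their values had been seen, with no test. *Cnot8* counts over *Cnot7* counts were 1.15, 0.965 and 0.768 in WT monosomes, 0.752, 0.646 and 0.716 in WT low polysomes and 3.68, 2.46 and 2.83 in WT high polysomes. The CAF1-type mRNAs were counted at ratios from 0.646 to 1.15 in the lighter fractions, whereas *Cnot8* exceeded *Cnot7* in all 3 high polysomes. In KO the ratio was 0.698 to 0.901 in monosomes, 0.782 to 1.17 in low polysomes and 2.38, 4.4 and 3.98 in high polysomes, which overlapped WT in the high polysome and lay wholly above it in the low polysome.

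*Cnot6l* over *Cnot6* was higher in each heavier fraction in WT, from 0.329 to 0.350 in monosomes through 0.404 to 0.805 in low polysomes to 1.29 to 1.38 in high polysomes. In KO it was 0.323 to 0.417, 0.487 to 0.746 and, in the high polysome, 1.04, 1.25 and 0.79. All 3 KO high polysome values lay below the WT values. *Cnot11* over *Cnot10* was 0.495 to 0.567 in WT monosomes and 3.09, 3.29 and 2.2 in WT high polysomes. In KO it was 0.621 to 0.653 and 1.91, 1.89 and 1.68, above WT in the monosome and below it in the high polysome, without overlap in either. *Cnot3* over *Cnot2* ran the other way, from 3.42 to 3.74 in WT monosomes through 2.05 to 2.44 in low polysomes to 1.26 to 1.55 in high polysomes. In KO it was 1.99 to 3.34, 1.06 to 1.97 and 1.49 to 1.69, wholly below WT in the monosome and the low polysome and overlapping it in the high polysome.

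**Figure D4:**
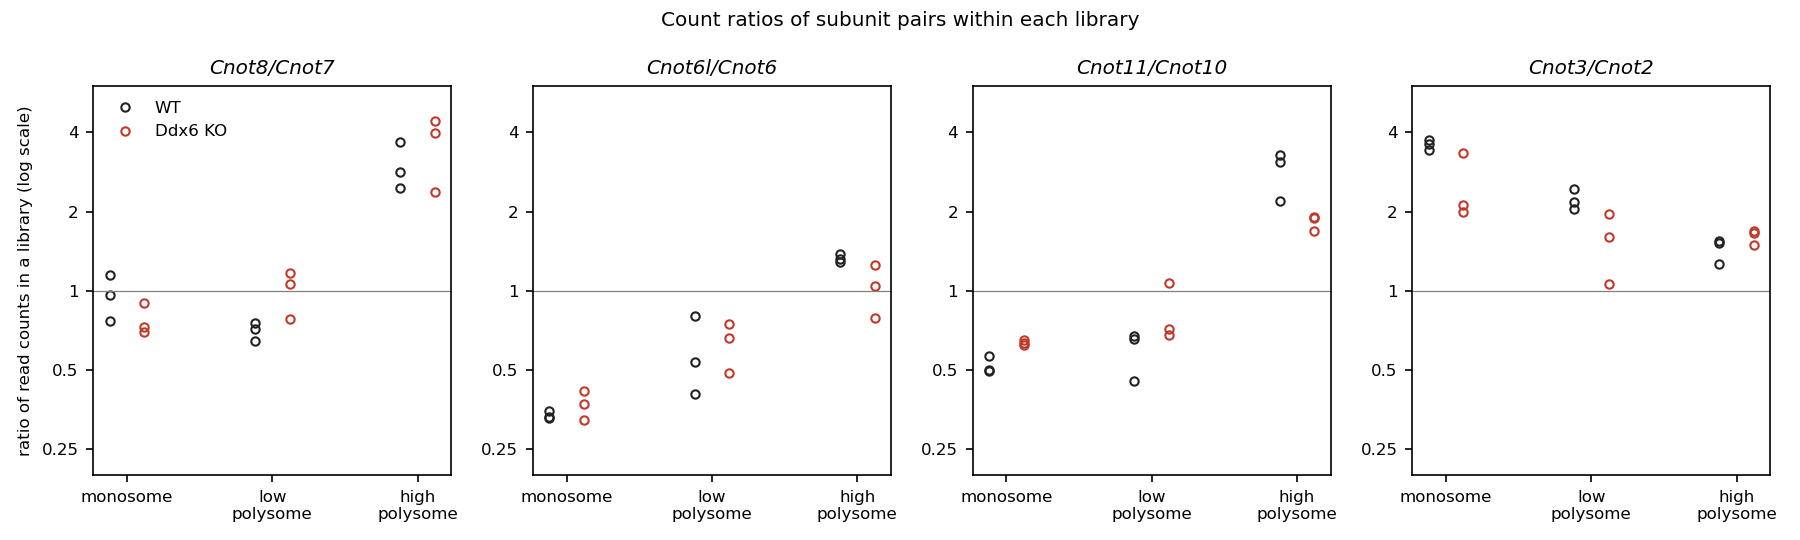
Ratio of read counts of 2 subunits in the same library (log scale) in each fraction, for *Cnot8* over *Cnot7*, *Cnot6l* over *Cnot6*, *Cnot11* over *Cnot10* and *Cnot3* over *Cnot2*. Each circle is a library (WT black, *Ddx6* KO red) and the grey line marks equal counts. The first 3 ratios are highest in the high polysome and *Cnot3* over *Cnot2* is highest in the monosome, in both genotypes. In the high polysome the KO circles lie below the WT circles for *Cnot6l* over *Cnot6* and *Cnot11* over *Cnot10*. Overlap was not counted for other pairs of genes.

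Across all tested coding genes the KO effect on the high polysome over monosome ratio was higher for longer coding sequences, so each member was set beside the value of that trend at its own length. The trend was -0.23 at *Cnot7* and -0.22 at *Cnot8*, the shortest, between 0.14 and 0.20 at *Cnot11*, *Cnot2*, *Cnot6l* and *Cnot6*, between 0.32 and 0.34 at *Cnot4*, *Cnot10* and *Cnot3*, and 0.64 at *Cnot1*. With the trend removed, *Cnot6* was 0.61 above it (adjusted p = 0.144) and *Cnot3* 0.44 above it (adjusted p = 0.18), and 0 of 10 members were called. *Cnot1*, with a change of 0.46, then lay at -0.17, and *Cnot7* and *Cnot11* lay at -0.45 and -0.44. Coding length thus moved with the result, and its part in the changes of *Cnot3* and *Cnot6* was not tested.

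**Figure D5:**
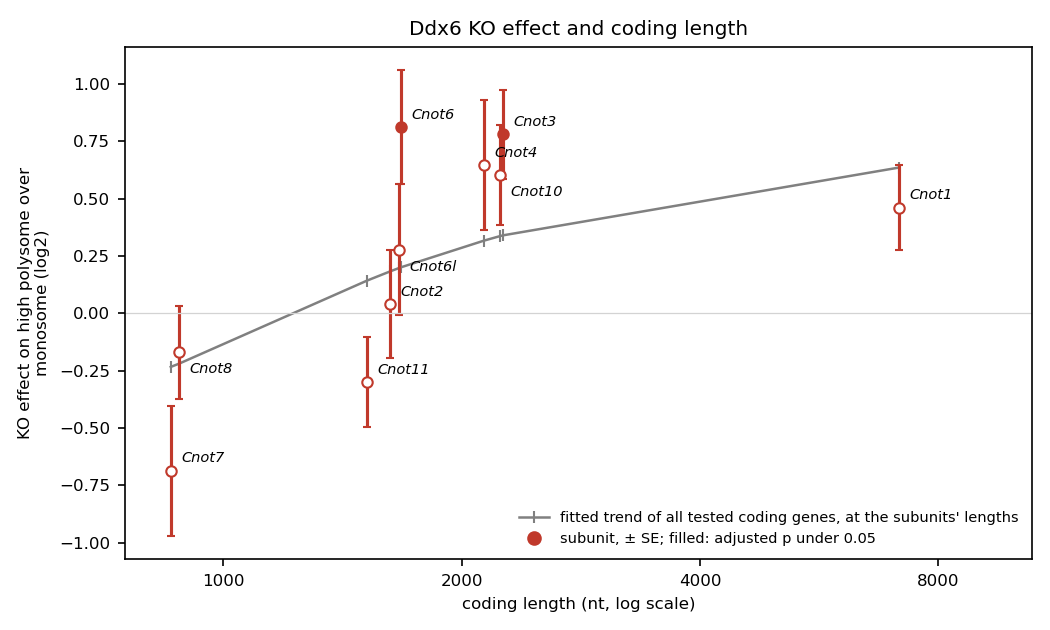
KO effect on the log2 high polysome over monosome ratio (vertical axis, ± SE from limma) against coding length in nt (log scale) for the 10 subunits. Filled circles had an adjusted p under 0.05, and the grey line joins the fitted trend of all tested coding genes at the subunits' lengths. *Cnot6* and *Cnot3* lie above the line, *Cnot7* and *Cnot11* below it, and *Cnot1* at its long end lies 0.17 below it.

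Genes that act with the complex were listed in 6 groups, 44 in all, of which 40 passed the filter. The lists were also made with earlier results of these data known. For the KO effect on the high polysome over monosome ratio, 10 of the 40 were raised and 1 was lowered, beside 10.7% and 7.09% of all tested genes, with a median of 0.09. The subunits left off the member list were CNOT9, at the core of the complex, and TNKS1BP1, a loosely attached one. *Tnks1bp1* had the greatest change of the listed genes (2.02 ± 0.39, adjusted p = 0.00226), from a mean log2 ratio of -0.59 ± 0.43 (SD, n = 3) in WT to 1.33 ± 0.86 in KO. *Cnot9* was not called (-0.35 ± 0.24, adjusted p = 0.317).

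Both listed cytoplasmic poly(A) binding proteins, whose protein coats the tails that the complex removes, had ratios that were raised from low values. *Pabpc1* went from -3.04 ± 0.13 to -1.91 ± 0.27 (change 1.13 ± 0.21, adjusted p = 0.00175) and *Pabpc4* from -2.63 ± 0.29 to -1.13 ± 0.36 (change 1.51 ± 0.20, adjusted p = 0.000151). Both were called lower in KO in the monosome, in the low polysome (-1.01 for *Pabpc1* and -0.86 for *Pabpc4*) and over all fractions (-0.83 and -0.79). In the high polysome neither was called (-0.18 and 0.003). Among the 4 tested BTG/TOB adaptors, which bind the CAF1-type nucleases, *Tob2* was raised (1.07 ± 0.16, adjusted p = 0.000386) and *Btg2* was lowered (-0.74 ± 0.25, adjusted p = 0.0441).

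Of 13 tested recruiters, 2 were raised, among them *Tnrc6b*, a microRNA effector (0.97 ± 0.33, adjusted p = 0.0488), and 0 were lowered. Of 8 other deadenylases, *Parn* (0.75 ± 0.23, adjusted p = 0.0321), *Toe1* (0.91 ± 0.26, adjusted p = 0.0194) and *Pde12* (0.64 ± 0.22, adjusted p = 0.0492) were raised, and 0 were lowered. Of 11 tested genes for DDX6 and its partners, *Edc4*, a decapping scaffold, was raised (1.11 ± 0.28, adjusted p = 0.0099). *Ddx6* itself was not called (-0.97 ± 0.69, adjusted p = 0.346) but was with the gradient as a block (-0.86, adjusted p = 0.0277). *Pabpc1*, *Pabpc4*, *Tnks1bp1* and *Tob2* were called under 16 of 17 alternatives, *Edc4* under 11, *Toe1* under 10 and *Btg2* under 8, whereas *Parn* and *Tnrc6b* were called under 5 and *Pde12* under 2. With clone 1 alone all 11 called partners kept their direction, and the 10 raised ones lay between 0.27 and 1.15. The fit that called them holds this gradient and the same WT gradients, so the shared direction is not independent support. *Edc4* was at 0.27 with clone 1 alone (1.11 in the full fit) and *Tnks1bp1* at 0.95 (2.02). *Pde12*, *Tnrc6b*, *Tob2* and *Btg2* changed more with clone 1 alone than in the full fit. Whether the clones differ was not tested.

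In the low polysome over monosome ratio 4 of the 40 partners were raised and 0 lowered, beside 2.31% and 2.39% of all tested genes. They were *Tob2* (1.2 ± 0.17, adjusted p = 0.00124) and the deadenylases *Toe1* (1.11 ± 0.28, adjusted p = 0.0299), *Pde12* (0.91 ± 0.24, adjusted p = 0.0352) and *Angel1* (1.13 ± 0.28, adjusted p = 0.0299), the last of which was named after its values were seen.

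Genes of like pattern were sought for *Cnot1* and *Cnot7*, by the correlation of log2 CPM over the 18 libraries among the 9029 tested genes with a mean of at least 10 CPM. The genes nearest to *Cnot1* were *Spen* (r = 0.96), *Ago2* and *Otud4* (both r = 0.95). The genes nearest to *Cnot7* were *Tmem123*, *Mzt1* and *Ubxn2a* (all r = 0.96). Among the members, the highest correlation was between *Cnot11* and *Cnot8* (r = 0.90) and the lowest between *Cnot11* and *Cnot6* (r = -0.84). These values describe libraries that share gradients, fractions and depth, and they were given no test.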

How the data were processed

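Polysome fractions of WT and *Ddx6* KO ESCs were sequenced with the QuantSeq 3′ FWD kit. Per the labels, the authors trimmed reads with cutadapt 1.14 and aligned them with STAR 2.5.3a to mm10 (the same assembly as GRCm38). They kept unique alignments and made the deposited counts per gene with featureCounts 1.5.3, counted by strand on Gencode M14. The labels name no molecular identifiers, so the counts may hold PCR copies, and reads shared by near-identical genes are lost. Names and lengths came from Gencode M21, where 51274 of 51467 identifiers matched. The 92 spike-in sequences (28 to 169 counts per library) were left out.

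A minimum of 3 CPM in 3 libraries kept 12705 genes with 99.6% of the counts. After TMM scaling (edgeR 4.0.16), limma 3.58.1 (R 4.3.3) with voom weights fitted 1 mean for each of the 6 groups over 18 libraries. The study's methods also used limma, this filter and an interaction term. Calls were two-sided, at an adjusted p (Benjamini-Hochberg, all tested genes) under 0.05. Ratios per gradient used a pseudocount of 0.5 CPM, and 3 against 3 gradients allow no exact permutation p below 0.1. After TMM, changes are relative to the typical gene. Fits were also run on simulated libraries, each drawn independently. Such a simulation does not test the p-values for libraries that share a gradient or a clone. Alternatives were other scalings, no filter, thinning, left-out gradients, clone 1 alone, edgeR, DESeq2 1.42.0, the compared groups only, a block, and removal of the coding length trend (a loess fit of the change on log coding length over the tested coding genes).

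The labels pair the 3 fractions of a gradient, and the deviations of such libraries from their group means correlated at -0.16 to 0.41. All 10 members are named, partners are named where the KO effect on high polysome over monosome was called, with *Ddx6* and *Cnot9* always named, and the 3 nearest genes are given for *Cnot1* and *Cnot7*. The members and lists were chosen with earlier results of these data known. Of the 44 listed partners *Btg3*, *Btg4*, *Nanos2* and *Samd4* did not pass the filter. The values of 1 listed gene are not reported here.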

Additional observations from a re-analysis of the deposited data

Results flagged for a closer look

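For 2 of the 10 members the ratio of high polysome to monosome abundance differed between the genotypes by the interaction test in limma. Over all tested genes 10.7% were called raised, and 21.2% had all KO gradients above all WT gradients. The high polysome over monosome ratio of *Cnot3* changed by 0.78 (log2, adjusted p = 0.00965), with all 3 KO gradients above all 3 WT gradients. That of *Cnot6* changed by 0.81 (adjusted p = 0.0291), also with all 3 KO gradients above all 3 WT gradients. The *Cnot6* call was lost under 10 of 17 alternatives. With the coding length trend removed, neither was called (limma adjusted p = 0.18 for *Cnot3* and 0.144 for *Cnot6*). Groups of 3 gradients are too small for a check of single outlying samples.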

How the results depend on the processing

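Of 695 values recomputed for single members under the alternatives, 620 kept their direction and their side of the threshold, 47 kept the direction but were no longer called, 13 became called and 15 changed sign. These values covered all members for the high polysome against monosome comparisons and the KO effect on that ratio. For the low polysome ratio they covered only the lowest and the highest member. Within and over fractions they covered only members with an unadjusted limma p under 0.05 or without overlap. Other members that became called there are not among the 13. No called member changed sign. The cause of these changes was not tested.

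For the KO effect on the high polysome over monosome ratio, 2 members were called. The count was 1 with library size alone, 1 without the filter, 1 after thinning, 0 with clone 1 as the only KO gradient, and 0 with the coding length trend removed, with or without the replicate block, while leaving out gradients gave 0 to 3. For the 11 called partners it was 7 without the filter, 0 with clone 1 alone, 5 with the length trend removed, with or without the block, and 5 to 10 without single gradients. With clone 1 alone the KO against WT counts were 1 in the monosome (2 in the full fit), 0 in the low polysome (1), 1 in the high polysome (3) and 0 over all fractions (2). This fit has a single KO gradient, assumed to vary like the other groups, so its lost calls do not show that a change is absent in clone 1. That gradient is also part of the full fit, so a direction kept with clone 1 alone is not independent support. The fold changes of the lost calls were 0.52 and 0.94 for *Cnot3* and *Cnot6* in the ratio (0.78 and 0.81 in the full fit), -0.38 and -0.35 for *Cnot3* in the monosome and low polysome (-0.55 and -0.47), 0.53 and -0.15 for *Cnot6* and *Cnot7* in the high polysome (0.52 and -0.53), and -0.33 and -0.19 for *Cnot1* and *Cnot3* over all fractions (-0.32 and -0.26), and all 11 partners kept their direction. Without the filter they were 1 in the high polysome and 1 over all fractions, and in the low polysome the compared groups alone gave 0. Leaving out gradients gave 0 to 3 members in the low polysome, 1 to 2 in the high polysome, and 1 to 3 over all fractions.

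Sign changes concerned uncalled values. With the length trend removed, without and with the replicate block, the change in the high polysome over monosome ratio was -0.17 and -0.16 for *Cnot1*, -0.14 and -0.16 for *Cnot2*, and 0.049 and 0.053 for *Cnot8*. *Cnot2* was at -0.013 with DESeq2 size factors, -0.081 with library size alone, -0.073 without the filter and -0.028 by DESeq2. Without single gradients *Cnot2* ranged from -0.15 to 0.22 and *Cnot8* from -0.33 to 0.0015. *Cnot6l* in WT, high polysome against monosome, ranged from -0.18 to 0.34 in such fits. The low polysome over monosome change of *Cnot7* was 0.20 with clone 1 alone. Over all tested genes the median change in the high polysome over monosome ratio was 0.02, and it was -0.10 with library size alone.

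With the gradient as a replicate block, 3 members and 12 partners were called in the KO effect on high polysome over monosome (2 and 11 without it). The added genes were *Cnot10* and *Ddx6*, and no other call among the members or partners changed in that comparison. Between genotypes the replicate numbers share only a number, with correlations of -0.45 to 0.22 between libraries of one number, and a block on that number gave 2, 1, 3 and 2 called members in the monosome, low polysome, high polysome and over all fractions, the same counts as without it. A pseudocount of 2 CPM turned no ratio. Precision is limited by 3 gradients per genotype, 1 of them for clone 1, by WT monosome libraries that were the shallowest, and by low counts of *Cnot4*.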
